A study of Mus musculus with 8 samples.

Results

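The Hox genes of the mouse lie in 4 clusters, HoxA on chromosome 6, HoxB on chromosome 11, HoxC on chromosome 15 and HoxD on chromosome 2, and each gene carries a paralogue number from 1 to 13 that gives its place along its cluster. They encode homeodomain transcription factors. In the embryo, genes at the low-numbered end are switched on earlier and closer to the head than genes at the high-numbered end, and many adult cells keep part of the pattern that their ancestors had at their level of the body axis. In the developing kidney the paralogues of number 11 act with Eya1 and Pax2 in the mesenchyme that condenses around the ureteric bud, and the paralogues of number 10 act in the stroma. In endothelial cells, Hoxb3 and Hoxd3 are known as pro-angiogenic factors, Hoxa5 and Hoxd10 as factors of quiescent vessels, and Hoxb5 as an activator of Kdr, the gene of the main VEGF receptor.

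Every gene named Hoxa, Hoxb, Hoxc or Hoxd with a number was taken as a member if its line in the deposited table held a count for all 8 libraries. This gave 34 of the 39 mouse Hox genes, among 17326 genes with complete lines: 10 of HoxA, 9 of HoxB, 8 of HoxC and 7 of HoxD. Hoxa13, Hoxb13, Hoxc11, Hoxd12 and Hoxd13 were not analysed here. Of the 34 members, 33 passed the filter on low counts and were tested. Hoxd11 was not, with 0 to 12 counts per library.

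The libraries were polyadenylated RNA of mouse kidney cells isolated by fluorescence-activated sorting, with endothelium and podocytes of the glomerulus as the sorted cell types. Podocytes are the epithelial cells that cover the glomerular capillaries. Each cell type came from EMCN+/+ (wild-type) kidneys and from EMCN-/- (knockout) kidneys. Emcn encodes endomucin, a sialomucin of the endothelial surface. The 4 groups of 2 libraries (replicates 2 and 3) were thus wild-type endothelium, knockout endothelium, wild-type podocytes and knockout podocytes. The labels gave no age, strain, sorting marker or allele design, and did not say whether the libraries of a group came from separate animals, so p-values measure only the spread between these libraries. In such bulk samples, fewer cells of a type and less RNA per cell cannot be told apart.

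The targeted gene followed the labels. Emcn stood at 1970 and 1830 CPM (reads scaled to a common library size) in wild-type endothelium against 173 and 179 in knockout endothelium, and at 74.1 and 35.9 CPM in wild-type podocytes against 5.59 and 4.94 in knockout podocytes (edgeR quasi-likelihood test, adjusted p = 0.0205 and 0.0321). Endothelial and podocyte markers separated the cell types: the log2 fold change of endothelium over podocytes was 4.54 for Pecam1 and 4.74 for Kdr, and -2.26 for Podxl and -3.78 for Synpo. Of the 15 endothelial markers 14 were called as higher in endothelium, and all 9 podocyte markers as higher in podocytes. The exception was Cldn5, a tight junction gene, which was higher in podocytes (142 CPM in endothelium, 304 in podocytes, log2 fold change -1.11, adjusted p = 0.00736). The first principal component (47.2% of the variance) separated the cell types and the second (18.6%) set wild-type endothelium replicate 3 apart. Total counts ran from 10478956 to 17386042 per library, so that 1 CPM stood for 11.6 to 16.1 reads. The sorts were not pure. The summed podocyte markers (9 of 15 on complete lines, none at 0) reached 1830 to 3200 CPM in endothelium against 10000 to 21600 in podocytes, a mean of 15.7%. The 15 summed endothelial markers reached 877 to 1370 CPM in podocytes against 10800 to 13700 in endothelium, a mean of 8.53%. That sum includes Cldn5, with its 304 CPM in podocytes, so the share is lower for the other markers together. Markers of the loop, distal tubule and collecting duct (8 of 12 on complete lines) summed to 3120 to 16400 CPM in endothelium and 6320 to 13200 in podocytes. Of these 8, 7 had a log2 fold change below 0 (median -0.53) and 0 were called. Genes of other lists were also called. Of the mesangial, mural and stromal markers (8 of 12 on complete lines, none at 0), 8 of 8 had a log2 fold change below 0 (median -0.98) and 4 were called, Des, Cspg4, Ren1 and Foxd1, with sums of 322 to 687 CPM in endothelium and 319 to 963 in podocytes. Of the proximal tubule markers (4 of 10 on complete lines, none at 0), 2 were called, Miox (-3.42) and Lrp2 (-1.12), with sums of 72 to 125 CPM against 165 to 1060. Of the 5 tested immune markers, 1 had a log2 fold change below 0 (median 0.48). That was Csf1r, called as higher in podocytes (9.1 CPM in endothelium, 81.4 in podocytes), and Lyz2 was called as higher in endothelium.

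Among the members that differed between the cell types, RefSeq promoter sequences (GRCm38.p6, 300 bases around a transcription start, most of them upstream) are shown for 1 gene of each cluster that had an entry. They cover HoxA, HoxC and HoxD, and CpG dinucleotides, which are dense in promoters under Polycomb and Trithorax control, are in capitals. The Hoxa10 promoter, at the upstream of its listed starts, lies at chr6:52240805-52241104 on the minus strand, the Hoxc4 promoter at chr15:103034145-103034444 on the plus strand inside the span of the gene, and the Hoxd9 promoter at chr2:74697513-74697812 on the plus strand.
Hoxa10: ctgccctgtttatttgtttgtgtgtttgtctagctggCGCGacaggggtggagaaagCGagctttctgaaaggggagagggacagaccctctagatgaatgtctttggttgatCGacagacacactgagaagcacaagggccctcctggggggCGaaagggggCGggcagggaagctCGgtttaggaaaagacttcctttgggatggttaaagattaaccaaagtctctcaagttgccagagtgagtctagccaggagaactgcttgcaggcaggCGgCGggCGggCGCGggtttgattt
Hoxc4: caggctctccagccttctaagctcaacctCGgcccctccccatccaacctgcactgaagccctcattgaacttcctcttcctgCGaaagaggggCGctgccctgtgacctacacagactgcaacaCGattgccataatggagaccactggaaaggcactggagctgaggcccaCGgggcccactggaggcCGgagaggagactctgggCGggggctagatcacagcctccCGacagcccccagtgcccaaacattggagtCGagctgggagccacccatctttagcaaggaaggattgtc
Hoxd9: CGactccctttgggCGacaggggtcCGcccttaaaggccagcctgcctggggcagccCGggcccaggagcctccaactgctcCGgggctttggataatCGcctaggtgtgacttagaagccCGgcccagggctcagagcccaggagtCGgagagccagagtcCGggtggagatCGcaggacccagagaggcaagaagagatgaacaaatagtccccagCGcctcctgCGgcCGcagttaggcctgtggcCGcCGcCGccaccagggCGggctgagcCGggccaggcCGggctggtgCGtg
The Hoxa10 window held 12 CpG, the Hoxc4 window 9 and the Hoxd9 window 20. At least as many were held by 39.6%, 45.8% and 26.5% of all 32851 promoter windows. The window at the other listed start of Hoxa10, not shown, held 21 CpG, and 24.8% of all windows held at least as many. The 21 windows found for 19 members had a median of 14 CpG, and all windows a median of 7. The Pbx-Hox motif TGATNNAT and the posterior Hox motif TTTATG were searched on both strands. They were found in 4 and 5 of the 21 Hox windows and in 8.8% and 11.9% of all windows, and the 3 windows shown held neither. That says only that these letters are not in those windows.

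The clusters also encode microRNAs, whose mature RNAs were not measured in these libraries. They are shown because their shared seeds (bases 2 to 8, in capitals) repeat from cluster to cluster as the Hox paralogues do. The miR-10 genes lie at chr11:96317186-96317208 in HoxB and at chr2:74726074-74726096 in HoxD (mature 5p arms, RefSeq, GRCm38.p6). The miR-196 genes lie at chr6:52230129-52230150 in HoxA, chr11:96265187-96265208 beside the analysed genes of HoxB, next to Hoxb9, and chr15:102973365-102973386 in HoxC.
miR-10a-5p: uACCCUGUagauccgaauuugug
miR-10b-5p: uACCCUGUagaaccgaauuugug
miR-196a-5p: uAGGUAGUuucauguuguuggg
miR-196b-5p: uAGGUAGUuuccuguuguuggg
The reverse complement of the miR-196 seed, ACTACCT, occurred in the longest protein-coding transcript of 11 of the 34 members (32.4%) and of 16.0% of 21877 genes. That of the miR-10 seed, ACAGGGT, occurred in 7 of 34 (20.6%) and in 18.9% of all genes. Hoxc8, the member that differed most between the cell types, held ACTACCT at bases 1037 and 1794 of its 1868-base transcript, shown with the bases around it.
Hoxc8 first match: agaatgacactcacaactctaACTACCTg
Hoxc8 second match: ctgataataaatctttaacatACTACCTa
These are matches of letters, not measured target sites. The Mir196b gene itself was counted at 4 to 35 reads per library and did not pass the test between the cell types (log2 fold change -0.91 ± 0.62 SE, adjusted p = 0.376). It shares exonic bases on the same strand with Hoxa9 (1.52% of those of Hoxa9), so reads of the 2 cannot be told apart.

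Both cell types transcribed Hox genes of all 4 clusters. Levels between genes are compared in CPM per kb of the longest protein-coding transcript. In endothelium the 5 members of highest level were Hoxb7 at 42.4 ± 8.23 CPM per kb (SD, n = 4), Hoxd8 at 32.7 ± 15.6, Hoxb2 at 28.8 ± 4.1, Hoxa7 at 26.5 ± 4.09 and Hoxd10 at 25.7 ± 12.4. Hoxb7 is known in the kidney as a gene of the ureteric bud lineage. Neighbours in this order overlapped in their ranges, Hoxb7 with 31.4 to 50.3 and Hoxd8 with 10.7 to 47.5 CPM per kb. In podocytes the order began with Hoxc8 at 49.9 ± 16.2 CPM per kb, followed by Hoxb7 at 37.4 ± 9.35, Hoxd8 at 31.9 ± 9.59, Hoxd10 at 29.6 ± 2.64 and Hoxa10 at 28.5 ± 6.3. Here too the ranges of neighbours overlapped. Hoxc8, which specifies thoracic vertebrae and brachial motor neurons, was thus first in podocytes and stood at 5.79 ± 1.51 CPM per kb in endothelium. With the mean transcript length in place of the longest, Hoxa7 and Hoxd8 led in both cell types, at 52.6 and 52.2 CPM per kb in endothelium and 51.7 and 50.9 in podocytes.

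Low levels were shared as well. Hoxb1, Hoxb8, Hoxc12, Hoxd1 and Hoxd11 averaged under 1 CPM in both cell types, and 18 of the 34 members averaged at least 10 CPM in at least 1 of them. Across the 34 members, the Spearman correlation of group mean levels was 0.95 between the 2 endothelium groups, 0.97 between the 2 podocyte groups and 0.86 to 0.89 between cell types. This is a description over genes, which share libraries and transcript lengths and are not independent.

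**Figure D1:**
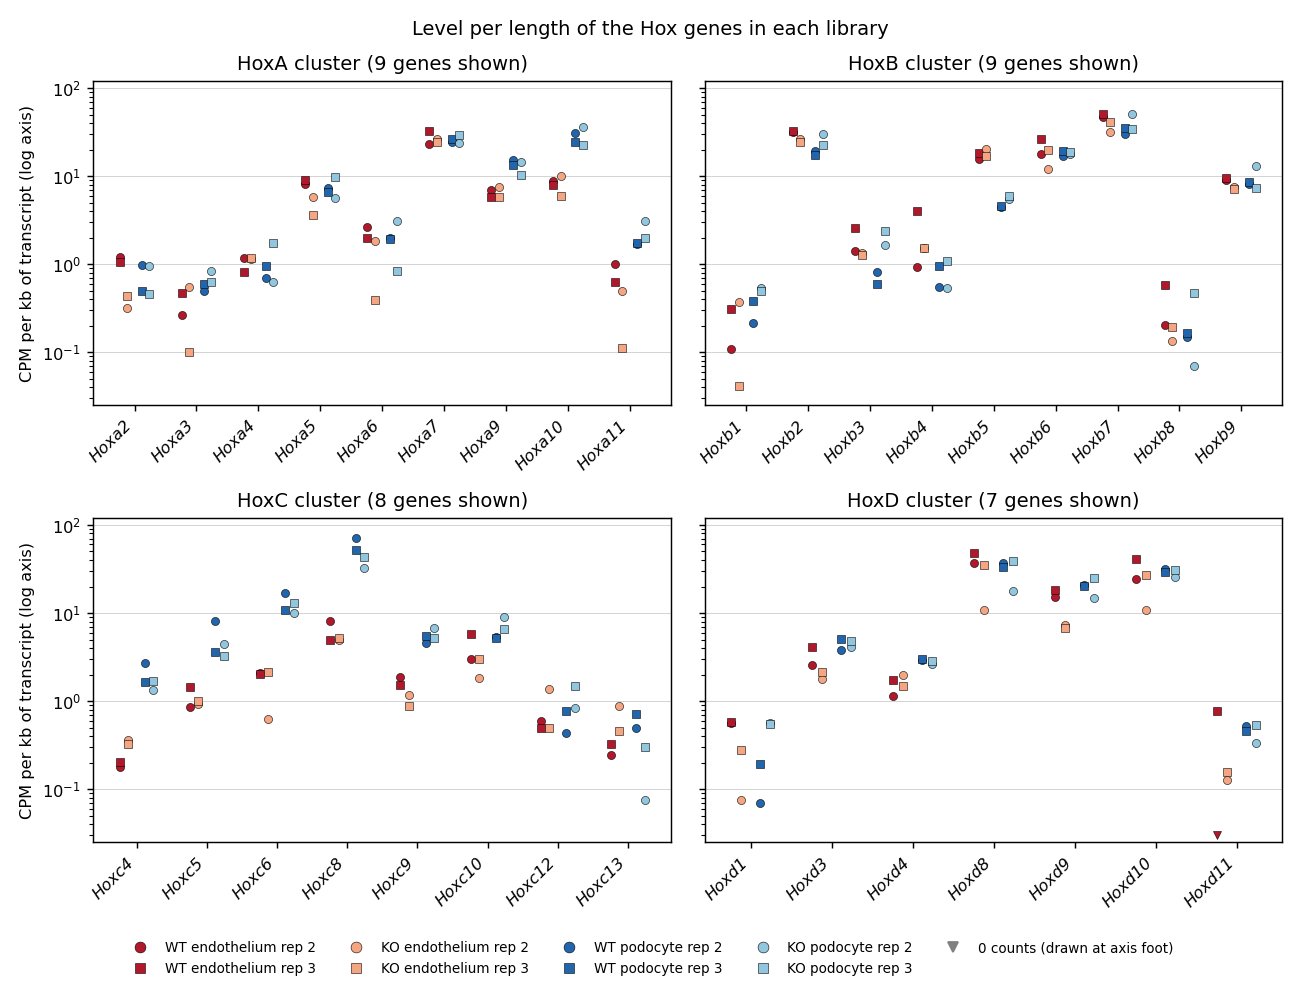
Level of 33 Hox genes in each of the 8 libraries, in CPM per kb of transcript on a log axis, in 1 panel per cluster and in order of paralogue number. Red and orange points are endothelium and blue points are podocytes. In HoxC the podocyte points of Hoxc4 to Hoxc9 lie above all endothelium points, and Hoxb5 shows the reverse.

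The main comparison set the 4 endothelium libraries against the 4 podocyte libraries, with the genotypes weighted equally (edgeR quasi-likelihood F test, p-values adjusted over 16477 genes by the Benjamini-Hochberg method, threshold 0.05). It called 11 of the 33 Hox genes tested, against 18.3% of all genes. Some of the mesangial, proximal tubule and immune markers were called as well, and their part in the Hox values was not tested. Only Hoxb5 was higher in endothelium, against 7.19% of all genes, and 10 members were higher in podocytes, against 11.1% of all genes. They were Hoxa9, Hoxa10 and Hoxa11, Hoxc4, Hoxc5, Hoxc6, Hoxc8, Hoxc9 and Hoxc10, and Hoxd9. By raw ranges, all 4 endothelium libraries lay above all 4 podocyte libraries for 1 of 34 members (9.59% of all genes) and below them for 9 of 34 (12.3%). Those 9 were the called members without Hoxc10 and Hoxd9, and with Hoxd4. The median log2 fold change of endothelium over podocytes was -0.26 over the 33 Hox genes and 0.00 over all genes. It was -2.12 in HoxC, -0.48 in HoxA, -0.53 in HoxD and 0.30 in HoxB, and the medians within each genotype, given further on, differ from these. Scaling by library size alone moved the median of all genes to 0.17 and that of the Hox genes to -0.07, and kept the sign of each cluster's median.

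HoxC carried the widest differences, with 6 of its 8 tested members higher in podocytes. Hoxc8 stood at 15.0 and 9.26 CPM in wild-type endothelium, 9.30 and 9.63 in knockout endothelium, 133 and 97.8 in wild-type podocytes and 61.1 and 80.9 in knockout podocytes. The lowest podocyte library lay above the highest endothelium library, and the log2 fold change of endothelium over podocytes was -3.08 ± 0.22 (SE, adjusted p = 5.59e-06). Hoxc6, a gene of thoracic and mammary development, read 3.27, 3.18, 0.987 and 3.35 CPM in the 4 endothelium libraries and 27, 17, 16 and 20.6 CPM in the 4 podocyte libraries. Its log2 fold change was -2.93 ± 0.37 (adjusted p = 0.00025). The 2 sets of libraries did not overlap for Hoxc6 either.

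Hoxc4, the lowest-numbered gene of the cluster and also active in lymphoid cells, was near the limit of detection in endothelium, where its 4 libraries held 5 to 11 reads (0.38, 0.434, 0.775 and 0.688 CPM). In podocytes it stood at 5.7, 3.48, 2.79 and 3.61 CPM, above every endothelium library. The log2 fold change was -2.79 ± 0.44 (adjusted p = 0.00126). Hoxc5 read 2.51, 4.2, 2.68 and 2.92 CPM in endothelium and 23.6, 10.6, 12.9 and 9.44 CPM in podocytes, again without overlap. Its log2 fold change was -2.17 ± 0.34 (adjusted p = 0.00118). Hoxc9, which fixes thoracic motor neuron identity, read 4.41, 3.62, 2.75 and 2.06 CPM in endothelium and 10.8, 13.1, 16 and 12.5 CPM in podocytes. It differed by -2.06 ± 0.27 on the log2 scale (adjusted p = 0.000367).

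Hoxc10, a gene of lumbar identity, was the least firm of the HoxC calls. It read 5.77 and 11.1 CPM in wild-type endothelium, 3.45 and 5.76 in knockout endothelium, 10.2 and 10 in wild-type podocytes and 17 and 12.7 in knockout podocytes. Hoxc10 shares 8.7% of its exonic bases on the same strand with Hoxc5 (5.37% of those of Hoxc5). Wild-type endothelium replicate 3 overlapped the podocytes. The log2 fold change was -0.98 ± 0.30 (adjusted p = 0.0471), and the call held in 6 of 15 alternative analyses. The 2 genes at the high-numbered end were low throughout and were not called: Hoxc12 stood at 0.76 ± 0.436 CPM in endothelium and 0.917 ± 0.458 in podocytes, and Hoxc13 at 1.18 ± 0.704 and 0.974 ± 0.666 (SD, n = 4). Within HoxC the difference thus ran through Hoxc4 to Hoxc10 and was not detected at Hoxc12 and Hoxc13, whose standard errors of 0.62 and 0.60 were wide at this depth.

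The HoxC levels in endothelium lay close to what the podocyte markers there showed. Endothelium had 18.1% of the summed HoxC level of podocytes, and 15.7% of the summed podocyte markers. Gene by gene the share was 14.6% for Hoxc4, 21.8% for Hoxc5, 13.4% for Hoxc6, 11.6% for Hoxc8, 24.5% for Hoxc9 and 52.1% for Hoxc10. The part of podocyte RNA in these endothelial levels was not tested.

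**Figure D2:**
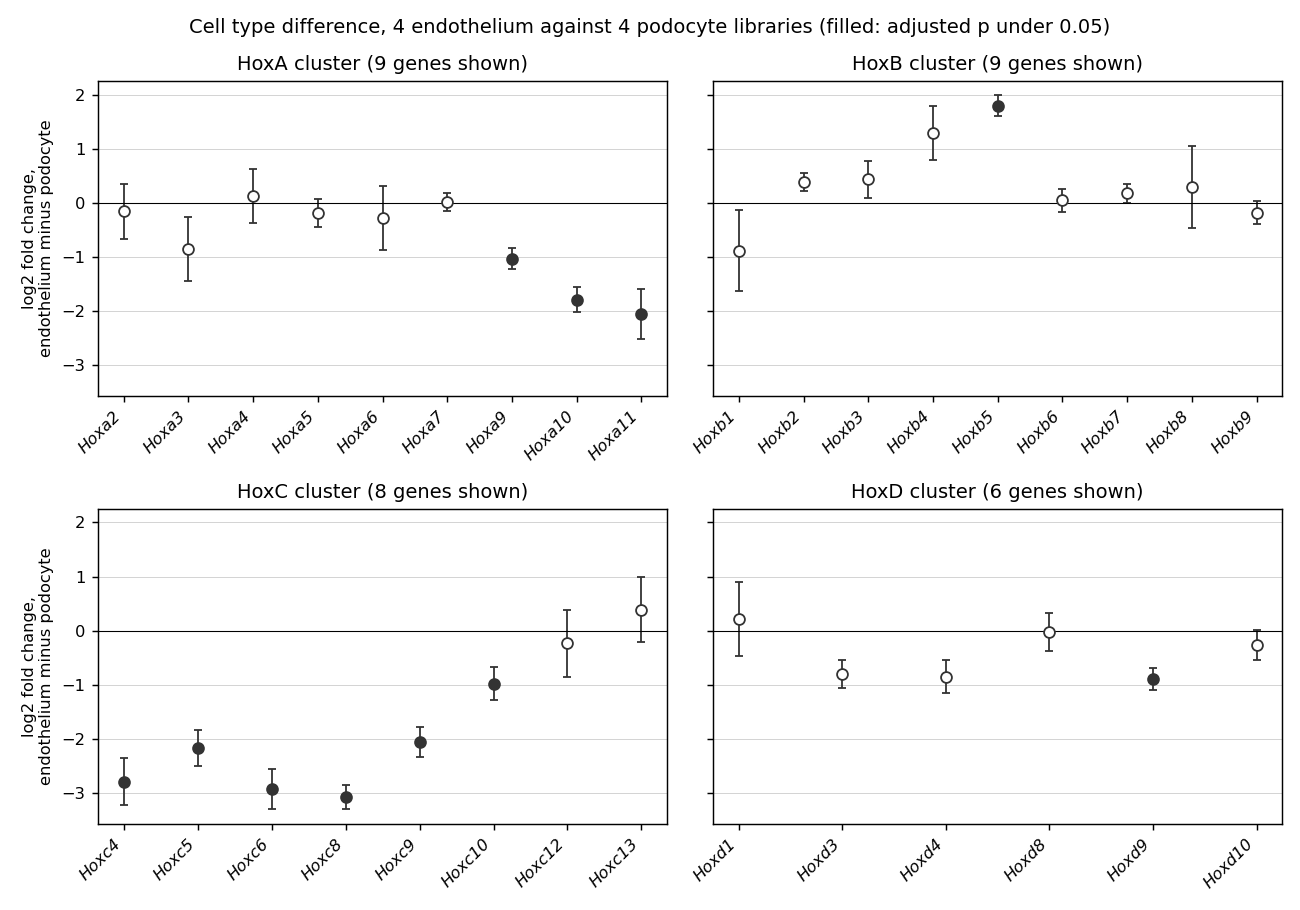
Log2 fold change of endothelium over podocytes (4 against 4 libraries) for 32 of the tested Hox genes, 1 panel per cluster. Points are estimates and bars are standard errors, with filled points at an adjusted p under 0.05. Hoxc4 to Hoxc10 and Hoxa9 to Hoxa11 lie below 0, and Hoxb5 stands above 0 at 1.80.

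In HoxA the 3 called genes were the 3 with the highest paralogue numbers among those analysed. Hoxa9, a gene of blood stem cells and vessels, read 22.6, 18.5, 24.3 and 18.8 CPM in endothelium and 49.4, 43, 46.4 and 33.6 CPM in podocytes. The libraries did not overlap, and the log2 fold change was -1.03 ± 0.19 (adjusted p = 0.0033). Hoxa10, known from uterine and blood development, read 22.9, 20.3, 25.9 and 15.4 CPM in endothelium against 78.7, 62.9, 93 and 57.3 CPM in podocytes, a log2 fold change of -1.79 ± 0.23 (adjusted p = 0.000273). Hoxa11, one of the kidney paralogues of number 11, held 30, 20, 16 and 3 reads in the endothelium libraries (2.28, 1.45, 1.13 and 0.258 CPM) and stood at 3.89, 3.99, 7.08 and 4.5 CPM in podocytes. Its log2 fold change was -2.05 ± 0.47 (adjusted p = 0.0118), with no overlap between the cell types. Of its exonic bases, 35% are shared on the opposite strand with Hoxa11os, and since strand use in counting is not given in the sources used here, reads of the 2 cannot be told apart.

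The other HoxA genes described here did not pass the test. Hoxa7, the most abundant of them, stood at 53.3 ± 8.22 CPM in endothelium and 52.4 ± 5.04 in podocytes, a log2 fold change of 0.02 ± 0.17. Hoxa5 stood at 12.5 ± 4.57 and 13.7 ± 3.31 CPM. Hoxa2, Hoxa3, Hoxa4 and Hoxa6 had means of 0.895 to 1.73 CPM and log2 fold changes from -0.85 to 0.13, each with its libraries overlapping.

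HoxB held the member that ran the other way. Hoxb5 read 29.4, 34.8, 38.3 and 32.1 CPM in endothelium and 8.36, 8.71, 10.4 and 11.4 CPM in podocytes. Every endothelium library lay above every podocyte library, and the log2 fold change was 1.80 ± 0.19 (adjusted p = 6.85e-05). Podocytes had 28.9% of the endothelial Hoxb5 level, and 8.53% of the summed endothelial markers. That sum includes Cldn5, which was higher in podocytes, and the targeted gene Emcn. Hoxb4, the neighbour of Hoxb5, read 2.35, 10.3, 3.88 and 3.87 CPM in endothelium. In podocytes Hoxb4 read 1.43, 2.47, 1.37 and 2.8 CPM. The high value was that of wild-type endothelium replicate 3, and with a log2 fold change of 1.30 ± 0.50 (adjusted p = 0.108) Hoxb4 did not pass the test. It was called by DESeq2's Wald test (adjusted p = 0.0338) and by edgeR without wild-type endothelium replicate 2 (adjusted p = 0.0272). Hoxb2, a hindbrain segment gene, stood at 46.9 ± 6.67 CPM in endothelium and 36.1 ± 9.0 in podocytes (log2 fold change 0.39 ± 0.16, adjusted p = 0.139), and was called when genes were kept from a mean of 5 CPM (adjusted p = 0.0234). The abundant Hoxb6, Hoxb7 and Hoxb9 differed by 0.05 ± 0.21, 0.18 ± 0.18 and -0.18 ± 0.21 on the log2 scale and were not called. Hoxb1, Hoxb3 and Hoxb8, at means of 0.435 to 5.27 CPM, were not called either.

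In HoxD 1 of the 6 tested members was called. Hoxd9, a gene of the limb and of lumbosacral identity, read 32.7 and 38.9 CPM in wild-type endothelium, 15.6 and 14.6 in knockout endothelium, 44.4 and 43.8 in wild-type podocytes and 31.8 and 53.6 in knockout podocytes. The wild-type endothelium libraries overlapped the knockout podocytes. The log2 fold change over both genotypes was -0.90 ± 0.20 (adjusted p = 0.0093). Hoxd3 and Hoxd4 had log2 fold changes of -0.80 ± 0.26 and -0.85 ± 0.30 and missed the threshold (adjusted p = 0.0584 and 0.0771). Hoxd3 was called by DESeq2's Wald test (adjusted p = 0.0469) and by edgeR without wild-type endothelium replicate 3 (adjusted p = 0.0484). For Hoxd4 the 4 podocyte libraries (6.83 to 7.62 CPM) all lay above the 4 endothelium libraries (2.89 to 5.07 CPM). Of the exonic bases of Hoxd3 and Hoxd4, 62.3% and 52.3% are shared on the same strand with other genes. Each of the 2 is among the genes that overlap the other, so how their reads were divided is uncertain. The overlap of the 2 alone was not computed. The most abundant HoxD genes, Hoxd8 and Hoxd10, differed by -0.02 ± 0.35 and -0.26 ± 0.28, and the low Hoxd1 by 0.21 ± 0.68.

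By position along the clusters, 0 of the 8 tested genes of numbers 1 to 3 were called. Of the 15 of numbers 4 to 8, 4 favoured podocytes and 1, Hoxb5, favoured endothelium. Of the 10 of numbers 9 to 13, 6 favoured podocytes and 0 favoured endothelium. Over all genes, 11.1% were called as higher in podocytes and 7.19% as higher in endothelium. The median log2 fold changes were -0.41, -0.02 and -0.94 in that order, beside 0.00 for all genes. Over the alternatives run they spanned -0.50 to -0.06, -0.18 to 0.12 and -0.99 to -0.77, so the value for numbers 4 to 8 had no settled sign (0.02 with DESeq2 size factors and 0.12 with library size alone). Within wild type the medians were 0.10, 0.27 and -0.69, and within knockout they were -1.03, -0.68 and -1.19. These rested in part on single libraries and on the filter. The wild-type value for numbers 9 to 13 was -0.31 with no filter, which adds Hoxd11, -0.19 at a mean of at least 5 CPM and -0.29 without wild-type endothelium replicate 2. Over all alternatives it spanned -0.80 to -0.19. Those for numbers 1 to 3 and 4 to 8 spanned -0.05 to 0.71 and 0.09 to 0.36, with the lower ends without wild-type endothelium replicate 3. In knockout the spans were -1.20 to -0.44, -0.74 to -0.26 and -1.51 to -0.91, and numbers 4 to 8 stood at -0.26 without knockout podocyte replicate 3 and at -0.39 with library size alone. Genes of numbers 9 to 13 made up 23.8 to 27.2% of the summed Hox level per length in the endothelium libraries and 32 to 36.4% in the podocyte libraries. Genes of numbers 1 to 3 made up 12.4 to 15.7% and 7.38 to 11.8%. The mean paralogue number, weighted by level per length, was 6.54 to 6.92 in endothelium and 7.31 to 7.52 in podocytes. The libraries of the cell types thus did not overlap in this measure. The shares and this mean used the longest transcript and were not computed with the mean transcript length. They weigh abundant genes most.

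As summed levels, HoxC reached 28.8 ± 4.75 CPM in endothelium and 159 ± 37.1 in podocytes (SD, n = 4), a ratio of 5.51. HoxA reached 118 ± 15.1 and 198 ± 15.6 CPM. HoxB, at 205 ± 33 and 162 ± 28.3 CPM, and HoxD, at 171 ± 75.4 and 203 ± 39.2 CPM, overlapped between the cell types. As a share of all Hox RNA per length, HoxC took 4.97 to 6.11% in endothelium and 19 to 29.5% in podocytes, and HoxB took 43 to 50.2% and 21.5 to 35.1%. All 34 members together summed to 546, 673, 393 and 481 CPM in endothelium and 771, 699, 692 and 723 CPM in podocytes. The podocyte sums lay above those of endothelium in every library, with wild-type endothelium replicate 3 the nearest.

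**Figure D3:**
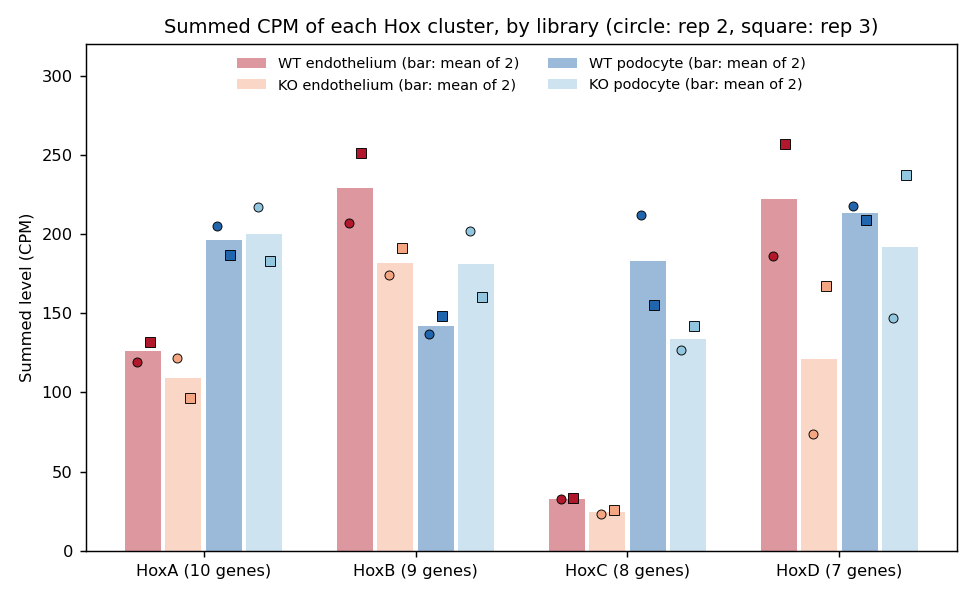
Summed CPM of each Hox cluster by library, with bars at the mean of the 2 libraries of a group, circles for replicate 2 and squares for replicate 3. HoxC is at 23.5 to 33.1 CPM in the endothelium libraries and at 127 to 212 CPM in the podocyte libraries, while the HoxB and HoxD points overlap between cell types.

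Taken within 1 genotype, 8 Hox genes were called in wild type (8.99% of all genes) and 9 in knockout (10.4%). Hoxa10, Hoxb5, Hoxc5, Hoxc6, Hoxc8 and Hoxc9 were called in both. Hoxc8 differed by -3.25 ± 0.31 in wild type and -2.91 ± 0.31 in knockout, and Hoxb5 by 1.91 ± 0.27 and 1.70 ± 0.26. Hoxa9 and Hoxc4 were called in wild type, with -0.89 ± 0.27 (adjusted p = 0.0645) and -2.11 ± 0.61 (adjusted p = 0.0531) in knockout. Hoxa11, Hoxc10 and Hoxd9 were called in knockout, with -3.02 ± 0.70, -1.69 ± 0.44 and -1.5 ± 0.29. In wild type they had -1.08 ± 0.64, -0.26 ± 0.42 and -0.30 ± 0.28 and were not called (adjusted p = 0.423, 0.825 and 0.65). The calls of Hoxc10 and Hoxd9 over both genotypes thus rested mainly on the knockout libraries. The test of the difference between genotypes, given with the interaction below, called none of these genes. The wild-type count rested on single libraries: it was 5 without wild-type endothelium replicate 2, 4 without wild-type endothelium replicate 3 and 2 (Hoxb5 and Hoxc8) without wild-type podocyte replicate 2. The knockout count was 6 without knockout podocyte replicate 2.

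Over all tested members, 17 of 33 had a log2 fold change below 0 in wild type (median -0.16) and 30 of 33 in knockout (median -0.78), where all genes had a median of -0.01 in each. In HoxB the median was 0.82 in wild type, with 1 of 9 members below 0, and -0.23 in knockout, with 7 of 9 below 0. In HoxD it was -0.11 and -0.93, in HoxA -0.21 and -0.86, and in HoxC -1.96 and -2.05. Library size alone gave HoxB 0.03 in knockout, where it gave all genes 0.27. Without wild-type endothelium replicate 2 the wild-type medians were 0.04 over all members and 0.42 in HoxD. Without wild-type endothelium replicate 3 they were -0.33 over all members, 0.36 in HoxB, -0.47 in HoxA and -0.38 in HoxD. Over all alternatives the medians of all members spanned -0.33 to 0.04 in wild type and -1.04 to -0.46 in knockout. Those of HoxB spanned 0.36 to 0.93 and -0.45 to 0.03, and those of HoxD -0.38 to 0.42 and -1.43 to -0.50. HoxA spanned -0.47 to -0.04 and -1.22 to -0.58, and HoxC stayed at -1.67 or below in both genotypes. The markers of the loop, distal tubule and collecting duct had 3 of 8 below 0 in wild type (median 0.04) and 7 of 8 in knockout (median -1.28), and their part in the Hox values was not tested. The difference between the genotypes in these medians was not tested either.

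The comparison of genotypes asked whether the Hox pattern changed with the loss of Emcn. No Hox gene was called in endothelium or in podocytes (0 of 33 in each, with 0.00607% of all genes called in each contrast, that gene being Emcn itself), and none for the difference between the 2 effects (0% of all genes). At an unadjusted p under 0.05 there were 2 Hox genes in endothelium (5.49% of all genes), 3 in podocytes (4.43%) and 7 for the interaction (2.6%). DESeq2's Wald test also called 0 in each, with 6, 2 and 7 at an unadjusted p under 0.05. The counts at that unadjusted p were not stable. With 1 library left out they ran from 1 to 6 in endothelium, 1 to 4 in podocytes and 2 to 8 for the interaction. The interaction count was 2 without wild-type endothelium replicate 3, 3 without wild-type podocyte replicate 3, 4 without either replicate 2 of the podocytes, 4 with library size alone and 2 at a mean of at least 5 CPM. The endothelium count was 5 without wild-type endothelium replicate 2 and 6 without knockout endothelium replicate 3.

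In endothelium the 3 Hox genes of smallest p were Hoxd9, Hoxa5 and Hoxa2, each with a lower value in knockout. Hoxd9 read 32.7 and 38.9 CPM in wild type against 15.6 and 14.6 in knockout, without overlap, a log2 fold change of -1.24 ± 0.29 (adjusted p = 0.716). Hoxa5 read 15.4 and 16.8 against 11 and 6.71 CPM, a log2 fold change of -0.86 ± 0.38. Hoxa2 was low, at 2.13 and 1.88 against 0.564 and 0.774 CPM, a log2 fold change of -1.58 ± 0.76. The adjusted p of both was 0.716. Over all 33 members, 25 (75.8%) had a log2 fold change below 0, beside 49.7% of all genes, with a median of -0.49 beside 0.00. Of the podocyte markers 8 of 9 were below 0 in knockout endothelium (median -0.44), with sums of 3200 and 1830 CPM in wild type and 2140 and 2010 CPM in knockout. Of the loop, distal tubule and collecting duct markers 8 of 8 were below 0 (median -1.13). None of these markers passed the test, and their part in the Hox values was not tested. Scaled by library size alone, which moved the median of all genes to 0.33, 20 of 33 were below 0 and the Hox median was -0.15. Without wild-type endothelium replicate 3, 23 of 33 were below 0 with a median of -0.30, and at a mean of at least 5 CPM the median was -0.29.

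HoxD was where the endothelium libraries spread most. Its sum was 186 and 257 CPM in wild type and 73.8 and 167 CPM in knockout. Hoxd8 read 98.1, 125, 28.1 and 93.5 CPM and Hoxd10 read 44.2, 74.2, 19.5 and 48.6 CPM across wild-type replicates 2 and 3 and knockout replicates 2 and 3. The low values in both were those of knockout endothelium replicate 2. The summed markers of the loop, distal tubule and collecting duct ran in the same order across these libraries for their extremes, at 7430, 16400, 3120 and 7070 CPM, and all 8 of them had a log2 fold change below 0 in knockout endothelium. In podocytes that sum was 6320, 13200, 6390 and 8720 CPM, where Hoxd8 read 96.5, 88.1, 47.3 and 104 CPM. The part of tubule RNA in the HoxD values was not tested.

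In podocytes the 3 Hox genes of smallest p were Hoxb3, Hoxc8 and Hoxb2. Hoxb3 read 2.59 and 1.89 CPM in wild type against 5.34 and 7.52 in knockout, a log2 fold change of 1.51 ± 0.49 (adjusted p = 0.978). Hoxb3os overlaps 52.9% of the exonic bases of Hoxb3 and 27.3% of those of Hoxb2 on the opposite strand. Hoxc8 read 133 and 97.8 CPM in wild type against 61.1 and 80.9 in knockout (-0.70 ± 0.28), and Hoxb2 31.2 and 28.3 against 48.7 and 36.3 (0.51 ± 0.23). For each of these genes the wild-type and knockout libraries did not overlap, and none passed the test. The podocyte markers stood beside Hoxc8 in direction: all 9 had a log2 fold change below 0 in knockout podocytes, with a median of -0.63. The part of the podocyte share of the sorted cells in the Hoxc8 value was not tested. Over the 33 members, 12 were below 0 in knockout podocytes, with a median of 0.09, and without knockout podocyte replicate 3 that median was -0.05.

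For the interaction (the effect of knockout in endothelium minus that in podocytes), the members of smallest p were Hoxb3 at -2.12 ± 0.68, Hoxd9 at -1.19 ± 0.40 and Hoxd1 at -3.78 ± 1.39 on the log2 scale, with an adjusted p of 1 for each. Hoxd1 held 14, 15, 2 and 6 reads in the endothelium libraries and 2, 5, 17 and 14 in the podocyte libraries, so its value rested on few reads. Of the 33 members, 27 had an interaction below 0, with a median of -0.62 beside -0.03 for all genes. Without wild-type endothelium replicate 3 it was 23 of 33 and a median of -0.35. The markers of the loop, distal tubule and collecting duct had 7 of 8 below 0 (median -1.29) and those of the proximal tubule 4 of 4 (median -0.47), and their part in the Hox values was not tested. Library size scaling gave 23 of 33 and a median of -0.40, where all genes had 0.18.

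**Figure D4:**
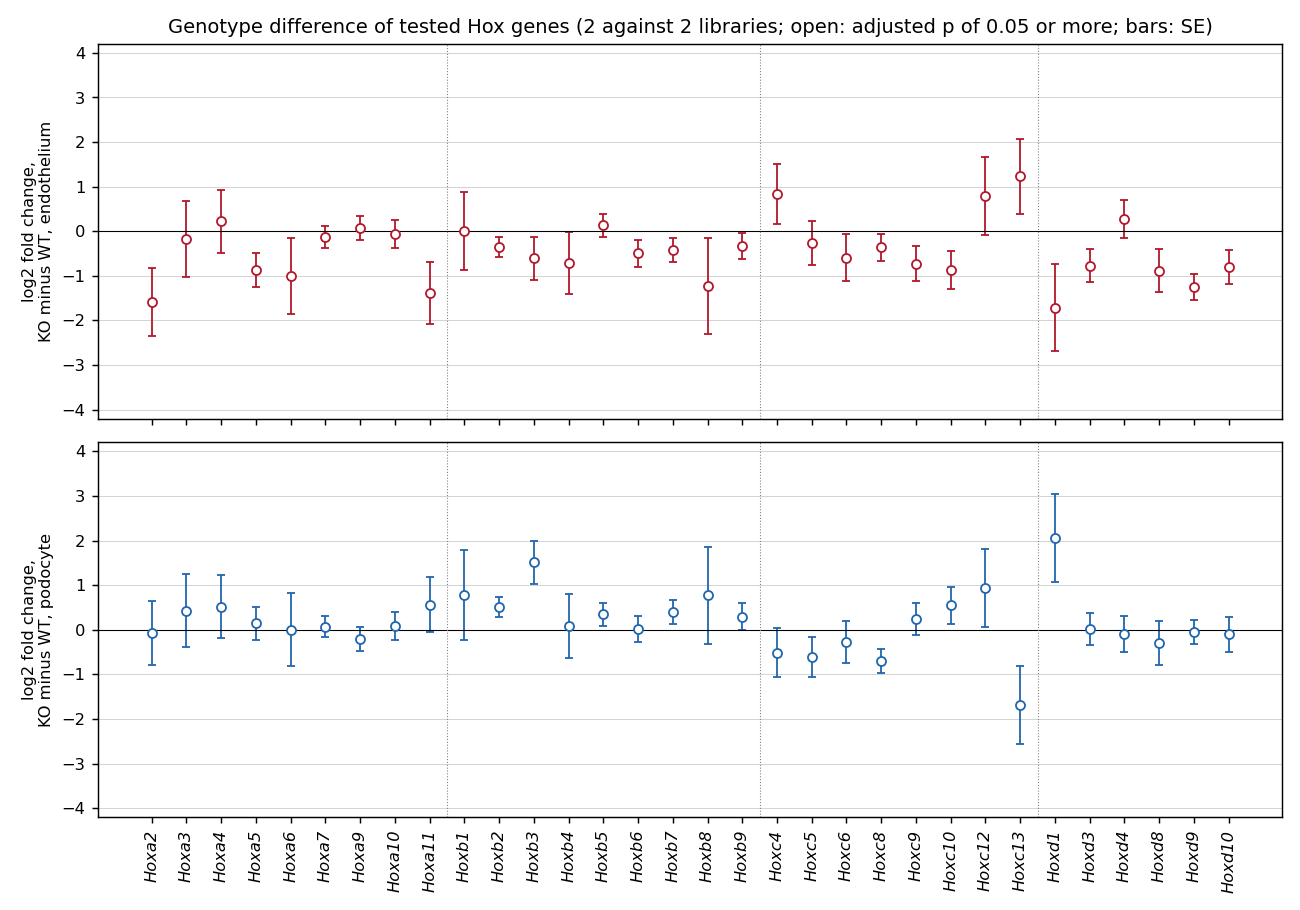
Log2 fold change of knockout over wild type for 32 of the tested Hox genes, in endothelium (upper panel) and podocytes (lower panel), 2 against 2 libraries. Bars are standard errors and open points have an adjusted p of 0.05 or more. All points are open, with 24 of 32 below 0 in endothelium and 11 of 32 in podocytes.

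Hox proteins bind DNA with cofactors of the TALE homeodomain class (the Pbx, Meis, Pknox and Tgif families), which raise their affinity and selectivity. Of 10 TALE genes reported here, 1, Meis2, was higher in endothelium, beside 7.19% of all genes, and 3 were higher in podocytes, beside 11.1%. Meis2 read 254, 292, 341 and 270 CPM in endothelium against 54.1, 47.8, 55.5 and 46.1 CPM in podocytes (2.50 ± 0.17, adjusted p = 4.5e-06). The cell types did not overlap. Higher in podocytes were Pknox2 (-1.84 ± 0.21, adjusted p = 0.000126), Pbx2 (-1.58 ± 0.36, adjusted p = 0.0114) and Tgif1 (-0.86 ± 0.22, adjusted p = 0.02). The Tgif1 call was lost without wild-type endothelium replicate 2, knockout endothelium replicate 3, wild-type podocyte replicate 3 or knockout podocyte replicate 2. Meis1, Meis3, Pbx3, Pbx4, Pknox1 and Tgif2 were not called. None of these genes was called between genotypes in either cell type.

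**Figure D5:**
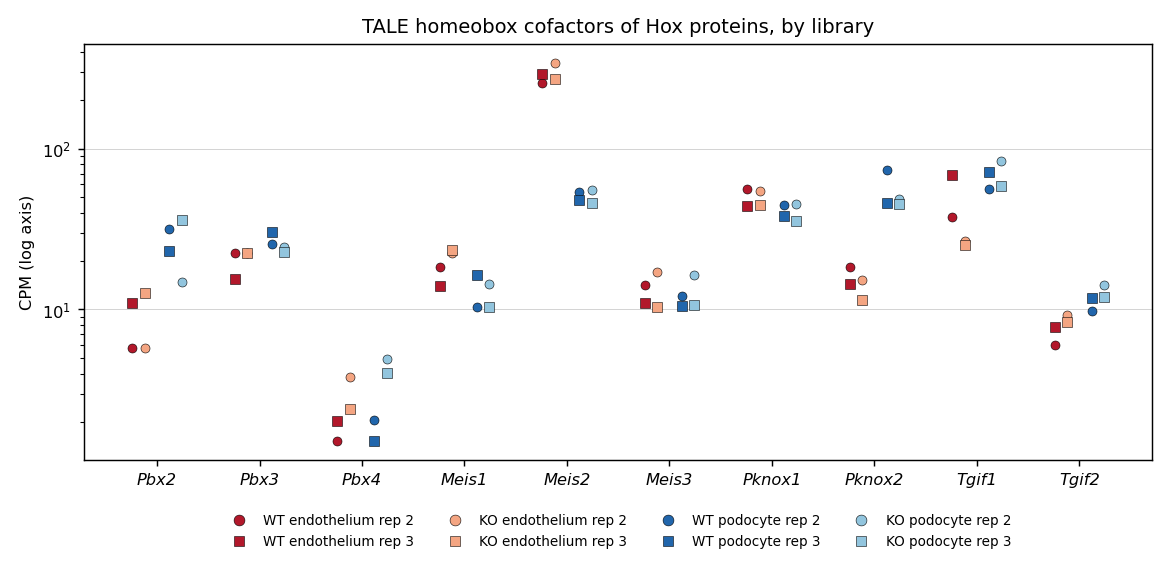
CPM on a log axis of 10 TALE homeobox genes in each of the 8 libraries, with red and orange for endothelium and blue for podocytes. Meis2 is at 254 to 341 CPM in endothelium and at 46.1 to 55.5 CPM in podocytes, and Pknox2 is higher in the podocyte libraries.

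Polycomb and Trithorax group proteins hold Hox clusters in the silent or active state. Of 23 such chromatin regulators reported here, 4 were higher in podocytes, beside 11.1% of all genes, and 0 in endothelium, beside 7.19%. The 4 encode subunits of Polycomb repressive complex 1: Cbx6 (-0.92 ± 0.16, adjusted p = 0.00204), Bmi1 (-1.24 ± 0.25, adjusted p = 0.00521), Rnf2 (-0.68 ± 0.16, adjusted p = 0.0119) and Ring1 (-1.05 ± 0.27, adjusted p = 0.0221). Bmi1 read 55.7, 33.6, 41.2 and 34.4 CPM in endothelium and 140, 85.1, 105 and 62.3 CPM in podocytes, without overlap. Other genes of that complex were not called: Cbx2, Cbx7, Cbx8, Pcgf2, Phc1, Phc2 and Phc3 had log2 fold changes from -0.87 (Cbx7) to 0.63 (Cbx2). With scaling by library size alone, and without wild-type podocyte replicate 2, Rnf2 and Ring1 were not called. Rnf2 was also lost without knockout endothelium replicate 2, and Ring1 was called in 1 of the 8 fits that left out 1 library. That fit, without knockout podocyte replicate 3, also called Cbx7, Cbx8, Ezh1, Kdm6a and Phc3 as higher in podocytes.

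Of 18 genes tested from the metanephric pathway in which the paralogues of number 11 act, 7 were higher in podocytes, beside 11.1% of all genes, and 0 in endothelium, beside 7.19%. Their median log2 fold change was -0.49, beside 0.00 for all genes. Osr2 led with -4.67 ± 0.31 (adjusted p = 3.98e-06), followed by Wt1 (-3.54 ± 0.27, adjusted p = 8.58e-06) and Tcf21 (-3.25 ± 0.34, adjusted p = 6.52e-05). Wt1 and Tcf21 are themselves podocyte markers. The others were Pax8, Foxd1, Eya1 and Sall1. Eya1, the partner of the Hox proteins of number 11, read 6.84, 2.6, 10.4 and 6.02 CPM in endothelium and 39.1, 28.7, 21 and 20.6 CPM in podocytes. As with Hoxa11, its podocyte libraries all lay above its endothelium libraries.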

How the data were processed

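Polyadenylated RNA from 8 sorted libraries (4 groups of 2) was analysed. The authors' deposited file is a single gene table of raw counts. The submitters' processing notes name mm10 and DESeq2, and the aligner, counter, annotation and strand use are not given in the sources used here. Of 22533 gene lines, 5207 (23.11%) held fewer than 8 counts and were left out. These short lines also left unreadable cells in 3 of the deposited count columns, which were recorded as other values for that reason. All values on the 17326 complete lines were whole counts, and 617 of those lines had no symbol. Libraries of 1 group had a Pearson correlation of log2 CPM of 0.95 to 0.964 and differed beyond sampling noise (54.9 to 70% of genes with a binomial p under 0.05 in each pair), so no pair looked like repeat deposits of 1 library. This does not show that they came from separate animals.

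These deposited counts entered edgeR 4.0.16 (R 4.3.3) unchanged: TMM scaling, filterByExpr by group (16477 genes), 1 mean per group, the quasi-likelihood F test and Benjamini-Hochberg adjustment over all genes tested. Standard errors of log2 fold changes were derived from the F statistic (its square root as the ratio of estimate to error). CPM used TMM-scaled library sizes. A count of 3 stood for 0.186 to 0.258 CPM, the limit that a count of 0 allows; such limits cover counting error only. Transcript lengths and exon overlaps came from GENCODE M21, and coordinates and promoter, microRNA and gene tables from RefSeq GRCm38.p6. The fit was tested on simulated data.

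Alternatives were DESeq2 size factors, library size only, the DESeq2 1.42.0 Wald test, a replicate block, each library left out, genes kept from a mean of 5 CPM or kept without a filter, and models limited to the groups in the contrast. A crossed block was chosen after seeing the data. Genes named were every called Hox gene, the 3 of smallest p per genotype contrast and interaction, the 5 of highest level per cell type, and up to 3 called genes per direction of each related list; other Hox genes were named to account for the family, and Cldn5 and the other called marker genes, Eya1, genes beside the clusters, and further genes of the TALE, chromatin and metanephric lists were chosen after their values were seen. The members and lists were chosen with earlier results of these data known. Results for some genes are not reported here.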

Additional observations from a re-analysis of the deposited data

How the results depend on the processing

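With 2 libraries per group, small differences could not be resolved, and under about 10 reads a gene's value was dominated by counting error. Of the 11 Hox genes called between cell types, 8 were called in all 15 alternative analyses that were run. Hoxa11 and Hoxc4 were called in all 14 that tested them, and Hoxc10 in 6 of 15. Leaving out 1 library gave 10 to 12 Hox genes and 2074 to 3278 genes in all for the mean over genotypes, 2 to 9 and 769 to 1672 in wild type (main 1481), and 6 to 10 and 960 to 1809 in knockout (main 1709). The wild-type count of all genes was 922 without wild-type endothelium replicate 3 and 769 without wild-type podocyte replicate 2. The knockout count was 960 without knockout endothelium replicate 2 and 1080 without knockout podocyte replicate 2. Where a group is left with 1 library, that library is assumed to vary like the others. Without wild-type endothelium replicate 2, the wild-type log2 fold change of Hoxc10 reversed to 0.13, and the values with 1 library left out ran from -0.81 (without wild-type endothelium replicate 3) to 0.13. The cause was not tested.

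Knockout against wild type called 1 gene (Emcn) in each cell type, and 0 to 1 with 1 library left out. In endothelium this became 0 with library size only, 10 with DESeq2 and 0 with a mean of at least 5 CPM. In podocytes it became 0, 12 and 0, and 0 with only the libraries compared. The cause was not tested. No Hox gene was called between genotypes or for the interaction under any alternative run. Scaling by library size only moved the median log2 fold change of all genes to 0.17 for the mean over genotypes, 0.27 in knockout, 0.33 for knockout endothelium, 0.13 for knockout podocytes and 0.18 for the interaction. It moved the calls that were higher in endothelium from 39.2% to 54.9%, and from 41.3% to 60.6% within knockout. A mean of at least 5 CPM gave 49.5%.

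The replicate numbers do not pair the samples by any label, and with 2 numbers the check is only a hint: deviations correlated at 0.1882 between the endothelium groups, 0.1569 between the podocyte groups, 0.1113 between the knockout cell types and -0.1288 between the wild-type cell types, and at -0.0967 and -0.0132 between groups that differ in both. With the replicate number as a block, 3434 genes and 12 Hox genes (the added one being Hoxd3, adjusted p = 0.038) were called for the mean over genotypes, 1831 and 9 in wild type, 2242 and 11 in knockout, and 1, 1 and 0 genes for the genotype contrasts and the interaction. With the podocyte numbers crossed, the counts were 2912 and 11, 1352 and 8, and 1578 and 9.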

Other observations

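Of 14 other homeobox genes tested as a comparison for the Hox family, 1 was higher in endothelium, beside 7.19% of all genes, and 3 in podocytes, beside 11.1%. The first share is near that of all genes. Meox1, a gene of somites and of endothelial cells derived from them, read 46.3, 49.9, 40.1 and 31.6 CPM in the 4 endothelium libraries and 3.43, 2.18, 3.85 and 2.43 CPM in the 4 podocyte libraries. Its log2 fold change was 3.80 ± 0.25 (edgeR quasi-likelihood test, adjusted p = 3.98e-06), and the cell types did not overlap. Tshz1 (-1.0 ± 0.17, adjusted p = 0.00201), Tshz2 (-0.84 ± 0.15, adjusted p = 0.00278) and Lmx1b (-3.46 ± 0.63, adjusted p = 0.00307) were higher in podocytes. Lmx1b, the nail-patella syndrome gene and a known podocyte factor, stood at 1.77 to 3.76 CPM there.

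Of 13 genes tested inside and beside the clusters that are not Hox genes, 1 was called, beside 18.3% of all genes. Mtx2, which lies beyond the low-numbered end of HoxD, stood at 100 CPM in endothelium and 148 in podocytes (-0.60 ± 0.16, adjusted p = 0.0265). Skap2 beside HoxA (-0.02 ± 0.15), Skap1 beside HoxB (0.31 ± 0.27) and Smug1 beside HoxC (-0.34 ± 0.20) did not pass the test. The noncoding Mira, beside Hoxa7, read 17.5, 21, 14.6 and 17.1 CPM in endothelium and 36.3, 18.2, 14.9 and 29 CPM in podocytes (-0.49 ± 0.28), with overlapping libraries.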
